A study of Homo sapiens with 12 samples.

Results

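The type I interferon response was followed through 55 genes, namely interferon-stimulated genes and the STAT and IRF factors that regulate them. These genes were picked by symbol, with earlier results of these data known. All 55 were present in both count tables, among 23533 gene identifiers listed for either line and 16052 listed for both. Total RNA was sequenced from 2 established human lines of neoplastic B cells, MEC1 and JVM2, with 3 biological replicates in each of 4 cell populations. MEC1-2B17 and JVM2-2B17 cells were electroporated with the pcDNA6 vector carrying the coding sequence of *UGT2B17*, an enzyme that attaches glucuronic acid to steroids and other lipophilic molecules, and were selected with blasticidin. JVM2-CTRL cells received the empty pcDNA6 vector and the same antibiotic, whereas MEC1-CTRL cells carried an shRNA against *UGT2B17* and were kept in puromycin. Construct and antibiotic therefore changed together with *UGT2B17* in MEC1 and cannot be told apart from it there, while in JVM2 both arms shared the vector. The sources used here do not say that replicates came from separate transfections, so p-values measure only the spread between these samples, which may be technical. The labels name no interferon treatment, and the values describe the basal level of these genes.

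The libraries held 31762649 to 37744991 counts in MEC1 and 8809179 to 11231330 counts in JVM2, so low genes were measured with less precision in JVM2. *UGT2B17* itself was higher in every 2B17 replicate, with means of 21.1 ± 1.37 against 11.0 ± 0.691 CPM (SD, n = 3) in MEC1 and 38.7 ± 5.67 against 27.8 ± 1.83 CPM in JVM2. CPM is the count of a gene relative to the total of its library, scaled by the TMM method. The 5 B-cell markers *MS4A1, CD79A, CD79B, PAX5* and *CD22* were all present, and they summed to 2034 to 2094 CPM in MEC1-CTRL and 1840.1 to 1908 CPM in MEC1-2B17 libraries. In JVM2 they summed to 1199 to 1226 CPM in CTRL and 1142 to 1371 CPM in 2B17 libraries. Of 5 T-cell markers, 4 were listed in MEC1, at a sum of 0.422 to 0.639 CPM in CTRL and 0.378 to 0.503 CPM in 2B17 libraries, and none in JVM2. Of 5 monocyte markers, 3 were listed in MEC1, at 0.784 to 1.05 and 0.444 to 0.735 CPM, and 1 in JVM2, at 0.653 to 0.897 and 0.544 to 1.47 CPM. The B-cell markers did not move together in MEC1. *MS4A1* was lower in MEC1-2B17 (mean 610 against 911 CPM), as were *CD79B* and *PAX5*. *CD79A* (197 against 162 CPM) and *CD22* (620 against 484 CPM) were higher. Whether the lower B-cell and monocyte sums in MEC1-2B17 bear on the results was not tested.

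Type I interferons bind a receptor made of IFNAR1 and IFNAR2, whose kinases JAK1 and TYK2 phosphorylate STAT factors, STAT2 among them. With IRF9 these form the complex ISGF3, which binds the interferon-stimulated response element (ISRE) in the promoters of many antiviral genes, while STAT dimers bind the GAS element. B cells keep many of these genes at a basal level without infection, and the products sense foreign nucleic acid, degrade or sequester viral RNA, or modify proteins.

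Promoter stretches with an ISRE core are shown first, for 7 genes that fell by at least 2-fold in one line or both, for *ISG15*, and for *ISG20*, which changed in opposite directions. They were chosen after values and matches were seen, and each holds a match by choice. Windows of 300 bases, from 250 bases before to 50 bases after a RefSeq start site (GRCh38.p14), were at hand for 46 of the 55 genes. They were searched on both strands for the ISRE core, written here as 2 copies of GAAA with any 2 bases between them (2 copies of TTTC on the opposite strand). The core was found in 29 of the 46 genes (63.0%) and in 4.38% of all 27305 genes with a window, or 3.57% of all 35116 windows. The GAS core TTCNNNGAA occurred in 13 of the 46 genes (28.3%) and in 9.38% of all genes, and matches of the 2 motifs overlapped in 22 windows of the whole table. Capitals below mark matches to the ISRE core or its reverse complement, and each stretch is written 5′ to 3′ on the strand of its gene. *IFIT1* lies on the plus strand (chr10:89392487-89392549), as do *IFIT3* (chr10:89327821-89327904), *IFI44L* (chr1:78620264-78620404), *PARP14* (chr3:122680790-122680839), *ISG15* (chr1:1013364-1013419) and *ISG20* (chr15:88638927-88638976). *DDX60* (chr4:168318776-168318860), *IFI6* (chr1:27672256-27672368) and *PARP9* (chr3:122564312-122564361) lie on the minus strand.
IFIT1: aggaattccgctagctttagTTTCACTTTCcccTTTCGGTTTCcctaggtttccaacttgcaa
IFIT3: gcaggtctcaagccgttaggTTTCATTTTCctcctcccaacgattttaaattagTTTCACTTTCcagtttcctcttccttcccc
DDX60: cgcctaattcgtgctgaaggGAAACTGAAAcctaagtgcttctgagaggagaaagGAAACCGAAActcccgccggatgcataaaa
IFI44L: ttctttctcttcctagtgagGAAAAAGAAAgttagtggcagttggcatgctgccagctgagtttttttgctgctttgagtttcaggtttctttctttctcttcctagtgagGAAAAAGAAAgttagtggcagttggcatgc
IFI6: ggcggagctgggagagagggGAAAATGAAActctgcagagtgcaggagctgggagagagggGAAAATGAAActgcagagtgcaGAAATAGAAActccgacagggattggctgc
PARP9: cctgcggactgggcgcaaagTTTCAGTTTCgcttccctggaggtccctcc
PARP14: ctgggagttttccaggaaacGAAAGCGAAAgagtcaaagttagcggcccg
ISG15: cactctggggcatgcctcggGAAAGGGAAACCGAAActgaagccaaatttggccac
ISG20: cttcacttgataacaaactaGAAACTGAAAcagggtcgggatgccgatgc

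*IFIT1*, *IFIT3*, *DDX60*, *IFI44L* and *ISG15* each held 2 matches in the printed window and *IFI6* held 3. In *IFI44L* both matches sit inside a 50-base stretch that recurs 91 bases further on, and in *IFI6* a 29-base stretch recurs at a distance of 41 bases. *PARP9* and *DTX3L*, which are transcribed away from each other, share 1 match (chr3:122564332-122564341) that begins 41 bases before the *PARP9* start and 6 bases before the *DTX3L* start. The 29 genes together held 49 distinct matches, of which 46 began before a start site. A match is a description of the letters in the window and not a measured binding site. *DHX58, IRF7, IFIT2, OAS2, OASL, MX2, USP18, TRIM22* and *PML* had no window in the table.

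**Figure D1:**
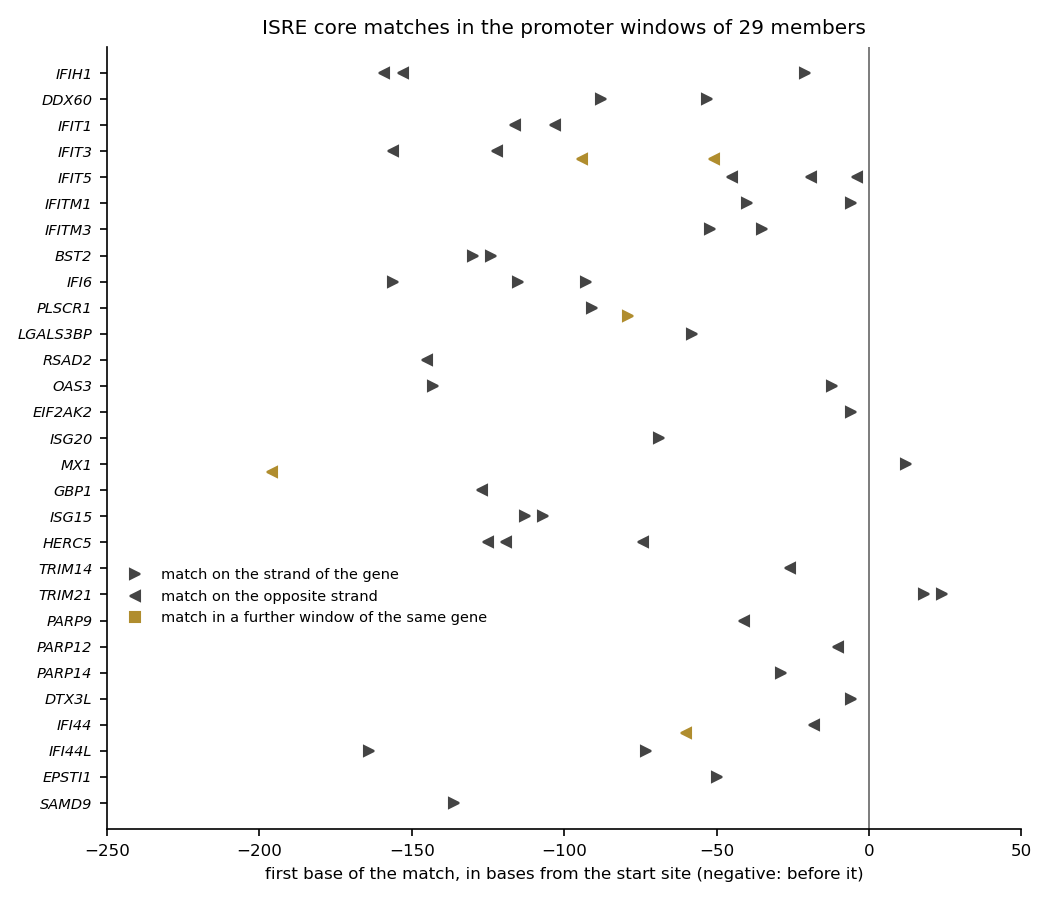
Position of every match to the ISRE core in the promoter windows of 29 genes, in bases from the start of transcription (line at 0). Triangles pointing right are matches on the strand of the gene and triangles pointing left matches on the opposite strand, and 46 of the 49 distinct matches begin before a start site.

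In both lines most interferon response genes were lower in UGT2B17-overexpressing cells. In MEC1, 54 of the 55 genes had enough counts to be tested, and 44 were lower and 2 higher in MEC1-2B17 than in MEC1-CTRL cells at an adjusted p below 0.05, while 8 did not pass the test. The background over all 16581 genes tested in MEC1 was 21.6% lower and 20.0% higher. In JVM2, 54 genes were tested, of which 41 were lower and 1 was higher in JVM2-2B17, and 12 did not pass the test, against 15.3% lower and 14.1% higher among all 13021 genes tested. Log2 fold changes of the genes had their median at -0.43 in MEC1 and at -0.51 in JVM2, against 0.0026 and 0.00012 for all genes tested. Every 2B17 replicate was below every CTRL replicate for 43 of the 54 genes in MEC1 (25.9% of all genes tested) and for 47 of 54 in JVM2 (23.6%). The reverse order held for 2 genes in MEC1 (24.3% of all genes), *ISG20* and *MX2*, and for 3 in JVM2 (21.6%), *MX2*, *OAS1* and *SP100*. Falls of at least 2-fold were seen for 9 genes in MEC1 (3.70% of all genes) and 9 in JVM2 (3.59%). In bulk RNA, fewer cells expressing a gene and less of its RNA per cell cannot be told apart.

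The 2 lines shared much of this pattern. Of the 53 genes tested in both, 34 were lower in both, against 4.48% of the 12243 genes tested in both lines. *MX2* was the single gene higher in both (3.90% of all genes) and *ISG20* the single gene with opposite changes (7.43%). A further 9 genes were lower in MEC1 without passing the test in JVM2, 5 were lower in JVM2 without passing it in MEC1, and 3 passed in neither line. *RSAD2* was tested in MEC1 only and *LGALS3BP* in JVM2 only, and both were lower there.

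**Figure D2:**
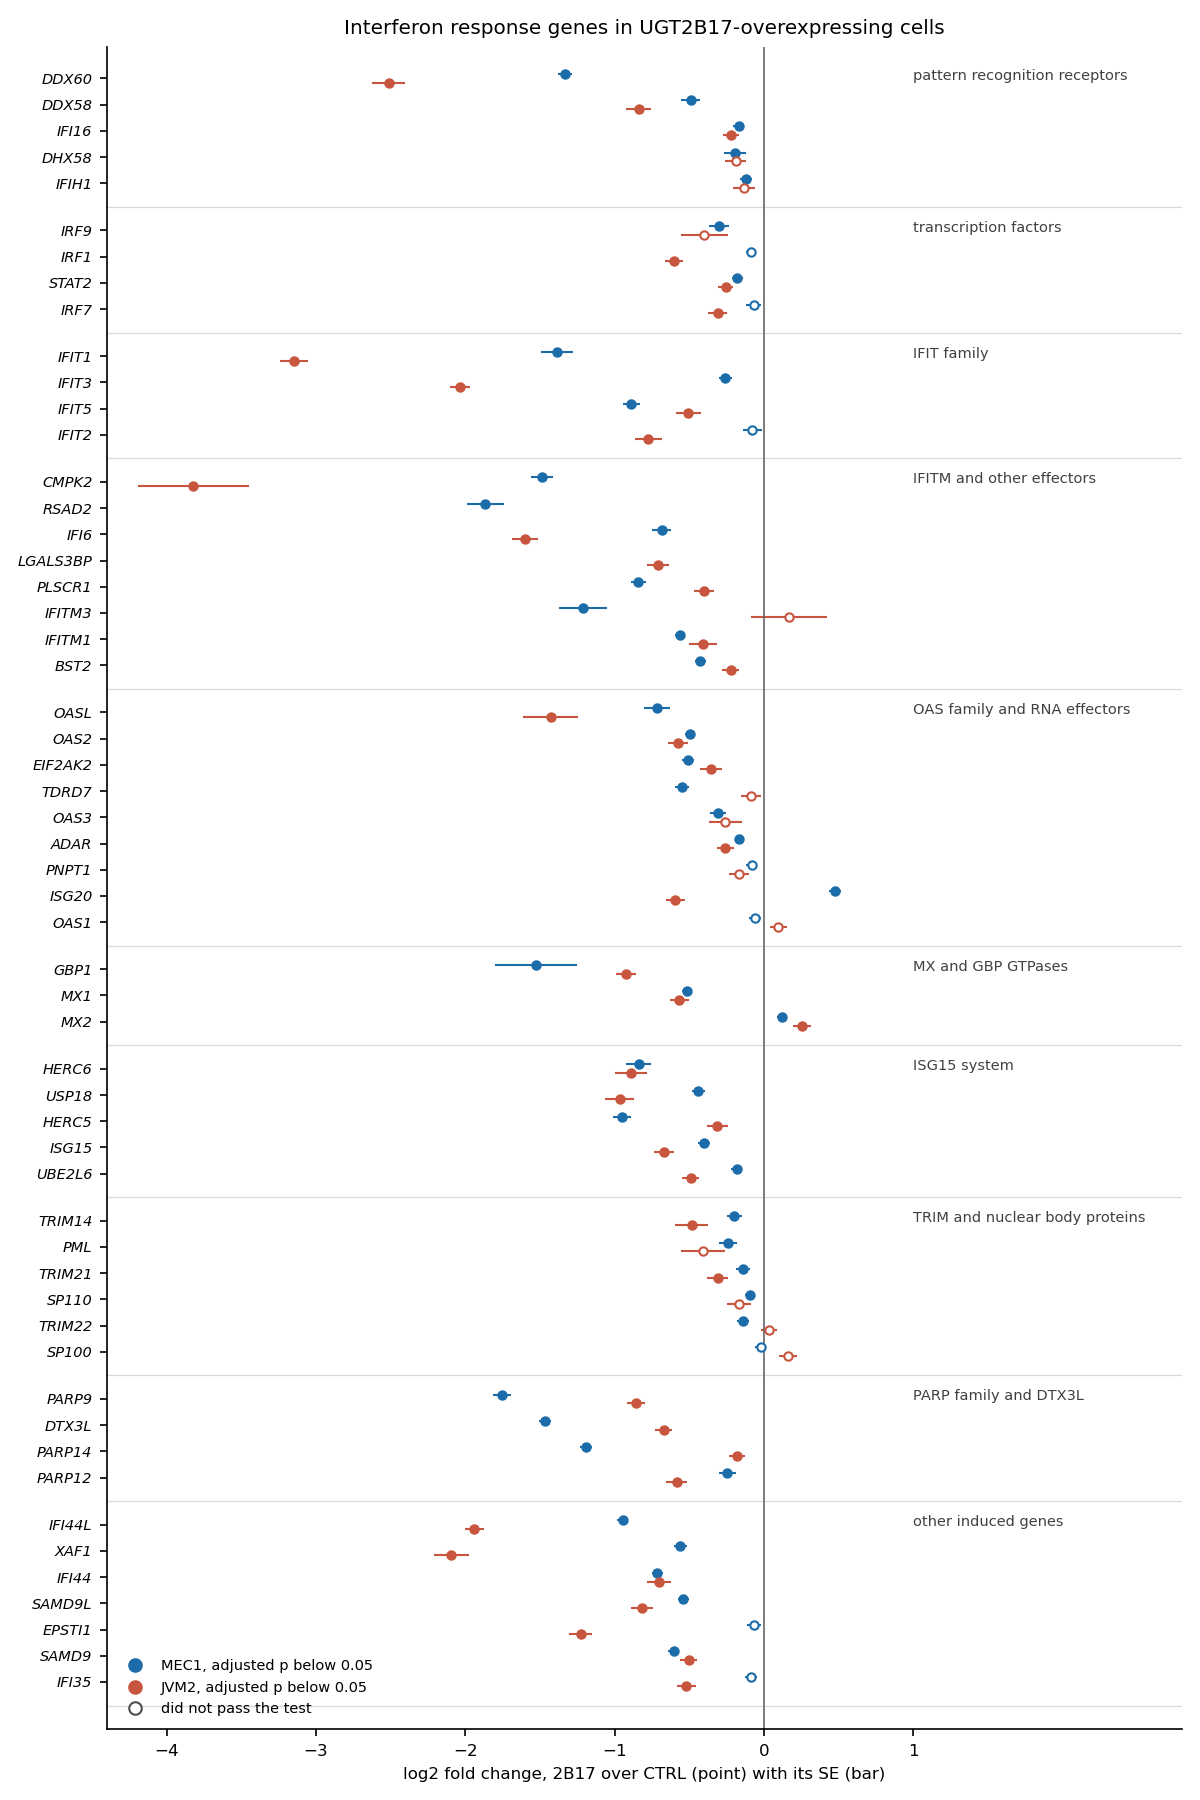
Log2 fold change of 2B17 over CTRL cells for each interferon response gene in MEC1 (blue) and JVM2 (red), grouped by role, with bars for the SE from 3 against 3 replicates. Filled points passed an adjusted p of 0.05 and open points did not, and in both lines the points lie mostly to the left of 0.

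The IFIT proteins bind viral RNA that lacks the host cap modification, and their 4 genes lie side by side on chromosome 10, from 89283694 to 89421605 of GRCh38. All 4 were lower in JVM2 (15.3% of all genes tested) and 3 in MEC1 (21.6%), and they included some of the largest falls of the whole response. *IFIT1* stood at 57.9, 58.9 and 61.4 CPM in JVM2-CTRL and at 6.25, 7.21 and 6.68 CPM in JVM2-2B17 replicates. The arms lie far apart, and the fall was 8.87-fold (log2 fold change -3.15, SE 0.092, adjusted p = 2.4e-10). In MEC1, *IFIT1* started from a lower level, 11.5, 10.9 and 9.64 CPM, and fell 2.61-fold to 4.56, 4.35 and 3.31 CPM (log2 fold change -1.39, SE 0.11, adjusted p = 5.2e-09). *IFIT3*, the partner that stabilises IFIT1 on RNA, was at 153, 153 and 148 CPM in JVM2-CTRL and at 35.7, 40.3 and 35.0 CPM in JVM2-2B17, a 4.10-fold fall (log2 fold change -2.04, SE 0.068, adjusted p = 5.3e-10). Its change in MEC1 was of another size, from 77.3, 77.8 and 74.2 to 67.8, 62.9 and 61.1 CPM, or 1.20-fold (log2 fold change -0.26, SE 0.043, adjusted p = 7.5e-05). *IFIT2* fell in JVM2 (log2 fold change -0.77, SE 0.092, adjusted p = 4.8e-05), whereas its MEC1 arms overlapped (-0.08, SE 0.064, adjusted p = 0.37). *IFIT5* went the other way round, with the larger fall in MEC1 (-0.89, SE 0.057) and the smaller in JVM2 (-0.51, SE 0.084), both past the threshold.

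Among the cytosolic sensors, *DDX60*, a helicase that assists RIG-I, changed most. It stood at 63.8, 63.1 and 59.1 CPM in MEC1-CTRL and 24.8, 24.2 and 24.9 CPM in MEC1-2B17, a 2.52-fold fall (log2 fold change -1.33, SE 0.048, adjusted p = 1.2e-13). In JVM2 the replicates were at 25.4, 25.7 and 25.4 CPM in CTRL and at 4.17, 4.62 and 4.64 CPM in 2B17 cells, a 5.71-fold fall (log2 fold change -2.51, SE 0.11, adjusted p = 7.2e-09). Replicates of an arm were almost equal in both lines. *DDX58*, which encodes the RNA sensor RIG-I (named RIGI in GENCODE v44), fell in MEC1 from 29.9, 28.3 and 27.7 to 21.9, 20.9 and 18.3 CPM (log2 fold change -0.49, SE 0.063, adjusted p = 3.6e-06). In JVM2 it fell from 32.6, 32.6 and 34.7 to 18.8, 18.2 and 18.8 CPM (-0.84, SE 0.082, adjusted p = 9.0e-06). The sister sensors changed little. *IFIH1*, which encodes the long-RNA sensor MDA5, was at 101, 98.5 and 93.4 CPM in MEC1-CTRL and 93.0, 89.1 and 87.5 CPM in MEC1-2B17 (-0.12, SE 0.038, adjusted p = 0.016). That call was lost without any 1 of CTRL replicates 1 and 2 and 2B17 replicates 2 and 3 (adjusted p 0.054 to 0.10). In JVM2 *IFIH1* was at 97.7, 103 and 101 against 85.1, 103 and 86.4 CPM (-0.13, SE 0.076, adjusted p = 0.21). JVM2-2B17 replicate 2 stood at the level of the controls, and without it the JVM2 value was -0.23 (adjusted p = 0.0014). *DHX58*, which encodes the regulator LGP2, was at 23.0, 25.4 and 20.0 CPM in MEC1-CTRL and 20.8, 19.3 and 19.8 CPM in MEC1-2B17. Its arms overlapped (-0.19, SE 0.072, adjusted p = 0.038). The call was lost with DESeq2 (adjusted p = 0.062) and without any 1 of CTRL replicates 1 and 2 and 2B17 replicates 2 and 3 (adjusted p 0.072 to 0.27), with a change of -0.11 without CTRL replicate 2. In JVM2 *DHX58* went from 48.9, 45.1 and 48.0 to 41.3, 40.4 and 43.0 CPM, which did not pass the test (-0.19, SE 0.070, adjusted p = 0.063). The nuclear DNA sensor gene *IFI16* was 1.12-fold lower in MEC1 and 1.16-fold lower in JVM2, and the JVM2 call was lost without JVM2-CTRL replicate 3 (adjusted p = 0.060). Within 1 Mb of *IFI16*, 11 other tested genes had a median log2 fold change of -0.17 in MEC1 (4 lower, 1 higher). In JVM2 6 such genes had a median of -0.49, and 4 were lower. How much of the fall of *IFI16* they share was not tested.

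The transcription factors of the response changed less than its largest targets. *STAT2*, a subunit of ISGF3, was at 125, 122 and 113 CPM in MEC1-CTRL and 110, 104 and 104 CPM in MEC1-2B17 (log2 fold change -0.18, SE 0.039, adjusted p = 0.0011). In JVM2 it was at 362, 355 and 362 CPM against 303, 296 and 305 CPM (-0.26, SE 0.050, adjusted p = 0.0023), so the arms were apart in both lines while the size was below 1.2-fold. *IRF9*, the DNA-binding subunit of ISGF3, fell in MEC1 from 18.1, 18.3 and 16.2 to between 13.5 and 15.3 CPM (-0.30, SE 0.068, adjusted p = 0.0015). The JVM2 values were 9.07, 7.37 and 7.11 against 5.44, 5.74 and 6.79 CPM, which did not overlap and yet did not pass the test (-0.40, SE 0.16, adjusted p = 0.075). A second identifier carries the symbol *IRF9* in the tables, a read-through transcript that shares 1544 exon bases with the gene and was counted apart. *IRF1*, an interferon-induced activator, was at 115, 116 and 109 CPM in MEC1-CTRL and 105, 106 and 110 CPM in MEC1-2B17, and these arms overlapped (-0.09, SE 0.035, adjusted p = 0.057, and 0.019 without CTRL replicate 3). In JVM2 it was at 91.5, 92.2 and 93.4 CPM against 64.5, 59.1 and 58.5 CPM, a 1.52-fold fall (-0.60, SE 0.062, adjusted p = 1.5e-05). *IRF7*, which amplifies interferon transcription, likewise overlapped in MEC1, with 154, 160 and 155 against 151, 134 and 162 CPM (-0.07, SE 0.051, adjusted p = 0.31). It fell in JVM2 from 75.4, 73.3 and 67.7 to 58.3, 57.1 and 59.3 CPM (-0.31, SE 0.065, adjusted p = 0.0035). Of the exon bases of *IRF1*, 22.9% are shared with a gene on the opposite strand, and whether counting used strand is not given in the sources used here.

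The genes upstream of these factors were read from lists beside the 55. *JAK1* rose in both lines, from 488 to 611 CPM in MEC1 (log2 fold change 0.32, adjusted p = 5.4e-07) and from 168 to 258 CPM in JVM2 (0.62, adjusted p = 4.9e-06). *TYK2* was lower in MEC1 (-0.12, adjusted p = 0.0097) and did not pass the test in JVM2 (-0.14, adjusted p = 0.14). The receptor subunit gene *IFNAR1* was lower in JVM2, with overlapping arms (-0.29, adjusted p = 0.029), and not past the threshold in MEC1 (-0.06, adjusted p = 0.29), while *IFNAR2* was lower in MEC1 (-0.24, adjusted p = 7.5e-05) and at -0.23 in JVM2 (adjusted p = 0.076). Neither receptor gene fell by more than 1.3-fold. Of 21 interferon ligand genes searched, 2 were listed in MEC1 and 1 in JVM2. *IFNA2* was at 0.611 CPM in MEC1-CTRL and 0.427 CPM in MEC1-2B17, which did not differ past the threshold (adjusted p = 0.17), and *IFNG* was too low to be tested in either line.

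*PARP9*, *DTX3L* and *PARP14* fell together in MEC1 and, with *PARP12*, had the lowest median of any role there, -1.33 on the log2 scale (-0.63 in JVM2). PARP9 and DTX3L form a ubiquitin ligase complex and PARP14 is an ADP-ribosyltransferase, and their genes lie within 1 region of chromosome 3, from 122527924 to 122730840. *PARP9* was at 38.4, 35.8 and 36.2 CPM in MEC1-CTRL and 10.8, 11.8 and 10.3 CPM in MEC1-2B17, a 3.37-fold fall (log2 fold change -1.75, SE 0.061, adjusted p = 7.5e-14). *DTX3L*, which starts at the shared ISRE core match, was at 106, 99.7 and 101 CPM against 36.1, 37.2 and 37.8 CPM (-1.46, SE 0.041, adjusted p = 3.3e-15). *PARP14* was at 447, 420 and 404 CPM against 186, 191 and 179 CPM (-1.19, SE 0.041, adjusted p = 6.0e-14). Within 1 Mb of *PARP9*, the 23 other tested genes had a median log2 fold change of -0.06 in MEC1, and 6 were lower and 4 higher. In JVM2 the same 3 genes were lower by less. *PARP9* went from 173, 172 and 168 to 94.1, 89.1 and 99.3 CPM (-0.86, SE 0.060) and *DTX3L* from 194, 199 and 206 to 127, 123 and 127 CPM (-0.67, SE 0.056). *PARP14* changed 1.13-fold in JVM2 (-0.18, SE 0.051, adjusted p = 0.019), and its call was lost without any 1 of the CTRL replicates or 2B17 replicate 1 (adjusted p 0.056 to 0.10). *PARP12*, another ADP-ribosyltransferase gene, was lower in both lines (-0.24, SE 0.055, in MEC1 and -0.58, SE 0.070, in JVM2).

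All 5 genes of the ISG15 system were lower in both lines. ISG15 is a ubiquitin-like protein, UBE2L6 its conjugating enzyme, HERC5 its ligase, HERC6 a related HERC protein and USP18 the protease that removes it and also restrains the interferon receptor. *ISG15* was at 116, 116 and 123 CPM in MEC1-CTRL and 92.9, 83.6 and 91.9 CPM in MEC1-2B17 (log2 fold change -0.40, SE 0.041), and at 196, 203 and 188 against 122, 133 and 114 CPM in JVM2 (-0.67, SE 0.068). The ligase and the protease ranked differently in the 2 lines. *HERC5* fell more in MEC1 (-0.95, SE 0.061) than in JVM2 (-0.31, SE 0.070), and *USP18* more in JVM2 (-0.97, SE 0.097) than in MEC1 (-0.44, SE 0.045). *HERC6* fell by a like amount in both (-0.84, SE 0.083, and -0.89, SE 0.11), and *UBE2L6* was 1.13-fold lower in MEC1 and 1.40-fold lower in JVM2.

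The membrane and small-molecule effectors were lower throughout MEC1, where all 7 tested passed, and 6 of 7 passed in JVM2. Of all genes tested, 21.6% were lower in MEC1 and 15.3% in JVM2. *RSAD2*, which encodes viperin, had the largest fall in MEC1, from 8.47, 7.12 and 7.47 to 1.78, 2.11 and 2.46 CPM, or 3.64-fold (log2 fold change -1.87, SE 0.12, adjusted p = 5.8e-10). In JVM2 the gene was barely present, with 6, 4 and 0 counts in CTRL and 2, 0 and 0 counts in 2B17 libraries, and was not tested. *CMPK2*, a nucleotide kinase gene that starts next to *RSAD2* on chromosome 2 (6840570 to 6866635) and is read in the opposite direction, was at 25.5, 22.4 and 22.6 CPM in MEC1-CTRL and 9.03, 8.09 and 8.07 CPM in MEC1-2B17 (-1.49, SE 0.073, adjusted p = 9.0e-12). In JVM2 it had 28, 45 and 36 counts in CTRL libraries and 2, 3 and 2 in 2B17 libraries. That is a ratio of 14.8 (95% interval of counting error 6.96 to 37.8), and the fitted log2 fold change was -3.82 (SE 0.37, adjusted p = 8.5e-06). The 3 other genes tested within 1 Mb of the pair were also lower in MEC1, with *RNF144A* at -0.88 on the log2 scale, and how much of the fall they share was not tested. *IFI6*, a mitochondrial and endoplasmic reticulum protein gene, was at 75.3, 64.0 and 68.0 CPM in JVM2-CTRL and 24.1, 20.9 and 23.2 CPM in JVM2-2B17, a 3.03-fold fall (-1.60, SE 0.087, adjusted p = 5.1e-08). In MEC1 it fell 1.61-fold (-0.68, SE 0.062, adjusted p = 4.5e-08). *IFITM3*, which blocks viral entry, fell in MEC1 from 2.37, 2.30 and 2.29 to 0.977, 1.01 and 1.01 CPM (-1.21, SE 0.16, adjusted p = 5.2e-06), whereas the JVM2 arms overlapped, with 3.99, 5.41 and 3.50 against 5.08, 3.04 and 6.45 CPM (0.17, SE 0.25, adjusted p = 0.66). Its far more abundant relative *IFITM1* was lower in both, at 201, 199 and 196 against 134, 133 and 137 CPM in MEC1 (-0.56, SE 0.034) and at 241, 231 and 231 against 189, 145 and 195 CPM in JVM2 (-0.41, SE 0.092). The IFITM genes are close copies of each other, so reads of the 2 could be split between them. *BST2*, which encodes tetherin, was 1.34-fold lower in MEC1 and 1.17-fold lower in JVM2 (the JVM2 call was lost without JVM2-CTRL replicate 2, adjusted p = 0.062), and *PLSCR1*, which encodes a phospholipid scramblase, was 1.79-fold and 1.32-fold lower. Other tested genes within 1 Mb of *BST2* had a median log2 fold change of -0.16 in JVM2 (12 of 46 lower) and 0.05 in MEC1 (4 of 58 lower). How much of the JVM2 fall of *BST2* they share was not tested. *LGALS3BP*, a secreted glycoprotein gene, had 2 to 13 counts per library in MEC1 and was not tested there, and in JVM2 fell from 171, 167 and 157 to 107, 89.8 and 105 CPM (-0.71, SE 0.074, adjusted p = 1.5e-05).

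**Figure D3:**
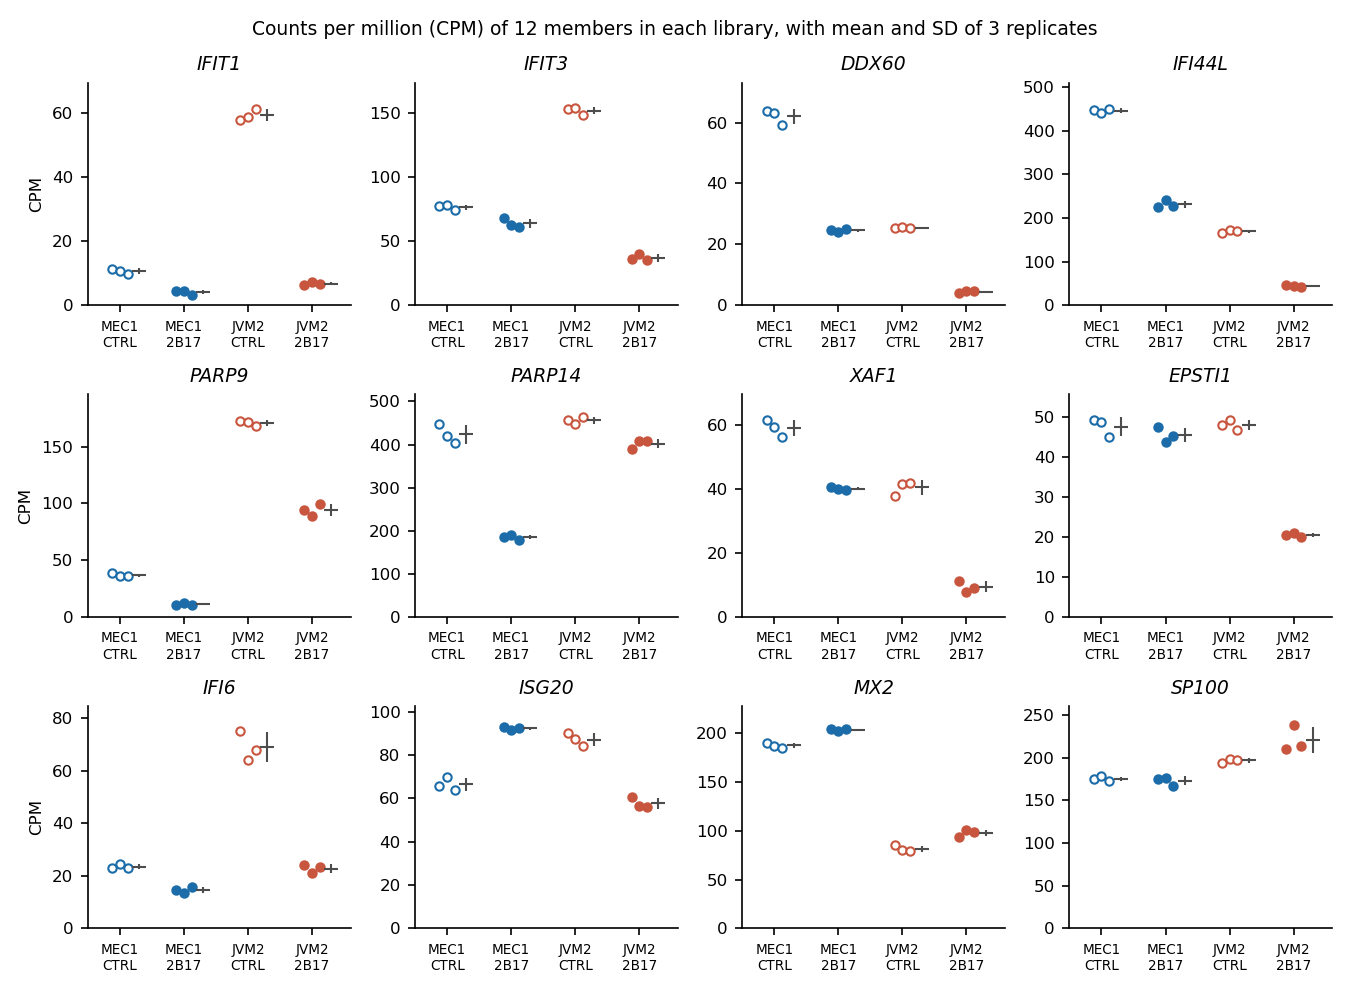
CPM of 12 interferon response genes in each of the 12 libraries, open circles for CTRL and filled circles for 2B17 cells, with the mean and SD of 3 replicates beside each group; every axis starts at 0. *IFIT3*, *XAF1*, *EPSTI1* and *IFI6* drop far more in JVM2 than in MEC1, *PARP14* drops mainly in MEC1, and *ISG20* moves in opposite directions.

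The RNA-directed effectors were split. The oligoadenylate synthetases activate RNase L, and of these *OAS2* was lower in both lines, from 306, 296 and 288 to 205, 211 and 215 CPM in MEC1 (log2 fold change -0.50, SE 0.036) and from 323, 313 and 322 to 229, 195 and 218 CPM in JVM2 (-0.58, SE 0.065). *OASL*, which binds RIG-I, was lower too, from 12.6, 12.8 and 10.5 to 7.79, 7.14 and 6.97 CPM in MEC1 (-0.72, SE 0.088) and from 7.97, 9.89 and 8.17 to 3.99, 2.81 and 2.72 CPM in JVM2 (-1.43, SE 0.18, adjusted p = 9.5e-05). *OAS1*, although it lies next to *OAS3* and *OAS2* on chromosome 12, did not pass the test in either line. It was at 87.5, 85.8 and 79.7 against 78.8, 83.6 and 81.0 CPM in MEC1 (-0.06, SE 0.041, adjusted p = 0.29), and all 3 JVM2-CTRL replicates were at 146 CPM against 150, 162 and 155 CPM in JVM2-2B17 (0.10, SE 0.056, adjusted p = 0.22). *OAS3* was 1.23-fold lower in MEC1, and in JVM2 its 2B17 replicates spread from 156 to 230 CPM, all below the lowest CTRL replicate at 231 CPM (-0.26, SE 0.11, adjusted p = 0.10). Without 2B17 replicate 2 it was at -0.11 (adjusted p = 0.13), and without 2B17 replicate 3 at -0.36 (adjusted p = 0.031). The protein kinase R gene *EIF2AK2* fell 1.42-fold in MEC1 and 1.28-fold in JVM2, and the RNA-editing enzyme gene *ADAR*, the most abundant of the 55 in CPM, fell 1.12-fold and 1.20-fold. *TDRD7*, an RNA granule protein gene, fell in MEC1 (-0.55, SE 0.045) and was at 53.1, 53.7 and 53.8 against 50.5, 53.8 and 47.1 CPM in JVM2 (-0.09, SE 0.070, adjusted p = 0.39). It lies on chromosome 9 at 97412096 to 97496125, and in MEC1 71.5% of the 471 tested genes of that chromosome from 60 Mb on were lower, with a median of -0.39, against 10.6% of 360 in JVM2. How much of its fall, or that of *TRIM14* at 98069275 to 98119222, belongs to this region was not tested. *PNPT1*, an RNA-degrading enzyme gene, did not pass the test in either line (-0.08 and -0.17), although it did without replicate 2 of the 2B17 arm in each (adjusted p = 0.040 and 0.0077).

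*ISG20* was the single gene past the threshold in opposite directions. It encodes an exonuclease that degrades single-stranded RNA, and lies on chromosome 15 from 88635670 to 88656483. In MEC1 it rose from 65.8, 69.9 and 63.7 to 93.2, 91.6 and 92.4 CPM, or 1.39-fold (log2 fold change 0.48, SE 0.039, adjusted p = 1.0e-08). In JVM2 it fell from 90.1, 87.5 and 84.1 to 60.5, 56.4 and 56.2 CPM, or 1.51-fold (-0.59, SE 0.063, adjusted p = 1.9e-05). The arms did not overlap in either line.

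The dynamin-like GTPases *MX1* and *MX2*, neighbours on chromosome 21 that block virus replication, also parted. *MX1* was at 688, 663 and 654 against 479, 464 and 461 CPM in MEC1 (log2 fold change -0.51, SE 0.032, adjusted p = 2.7e-10) and at 621, 598 and 592 against 402, 439 and 383 CPM in JVM2 (-0.57, SE 0.060, adjusted p = 2.0e-05). The fall was 1.43-fold in MEC1 and 1.48-fold in JVM2. *MX2* instead rose, from 190, 187 and 185 to 204, 203 and 205 CPM in MEC1 (0.12, SE 0.034, adjusted p = 0.0083) and from 85.1, 80.2 and 79.5 to 94.1, 100 and 98.4 CPM in JVM2 (0.26, SE 0.060, adjusted p = 0.0063). The rise was 1.09-fold and 1.20-fold, and *MX2* stayed higher in both lines under every scaling and with every replicate left out. *GBP1*, a guanylate-binding protein gene, was below 1 CPM in MEC1, with 38, 30 and 32 counts in CTRL and 7, 14 and 11 counts in 2B17 libraries (-1.53, SE 0.27, adjusted p = 1.6e-04). In JVM2 it was at 100, 102 and 105 against 56.9, 55.3 and 49.0 CPM (-0.92, SE 0.068, adjusted p = 7.6e-07).

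The TRIM and nuclear body genes changed little in MEC1, where 5 of 6 were lower (median -0.14 on the log2 scale). In JVM2 2 of 6 were lower, with a median of -0.24. Of all genes tested, 21.6% were lower in MEC1 and 15.3% in JVM2, and counts of so few genes are a description with no test. *TRIM14*, an adaptor in RNA sensing, and *TRIM21*, an intracellular antibody receptor, were lower in both lines, by 1.15-fold and 1.10-fold in MEC1 and by 1.40-fold and 1.24-fold in JVM2. *PML*, which organises nuclear bodies, was at 33.7, 33.5 and 34.2 against 28.0, 26.1 and 31.9 CPM in MEC1 (-0.24, SE 0.061, adjusted p = 0.0037). In JVM2 it was at 61.1, 54.9 and 61.6 against 52.4, 30.6 and 49.9 CPM, where replicate 2 of JVM2-2B17 lay well below the others (-0.41, SE 0.15, adjusted p = 0.055). Without that replicate the JVM2 change was -0.21 with an adjusted p of 0.018, and without 2B17 replicate 1 or 3 it was -0.55 or -0.49 (adjusted p = 0.025 and 0.049). The nuclear body gene *SP110* was 1.07-fold lower in MEC1, a call lost with DESeq2 (adjusted p = 0.097) and without any 1 replicate other than 2B17 replicate 3 (adjusted p 0.061 to 0.17), and was at -0.17 in JVM2 (adjusted p = 0.15). The *TRIM21* call in MEC1 was lost with DESeq2 as well (adjusted p = 0.072), and without CTRL replicate 1 or any 1 of the 2B17 replicates (adjusted p 0.055 to 0.11).

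Of the 7 remaining induced genes, all were lower in JVM2 (15.3% of all genes tested) and 5 in MEC1 (21.6%). *IFI44L* and *IFI44*, neighbours on chromosome 1 from 78619902 to 78664078, were both lower in both lines. *IFI44L* was at 448, 439 and 449 against 226, 240 and 227 CPM in MEC1 (log2 fold change -0.95, SE 0.035, adjusted p = 2.2e-13) and at 165, 172 and 171 against 46.4, 44.4 and 41.3 CPM in JVM2 (-1.94, SE 0.064, adjusted p = 5.1e-10). *IFI44* fell in both (-0.71, SE 0.036, and -0.70, SE 0.079). *XAF1*, which opposes the apoptosis inhibitor XIAP, fell in JVM2 from 38.0, 41.6 and 42.0 to 11.2, 7.88 and 9.05 CPM, or 4.27-fold (-2.09, SE 0.12, adjusted p = 6.4e-08), and in MEC1 from 61.7, 59.4 and 56.5 to 40.8, 40.1 and 39.8 CPM (-0.56, SE 0.045, adjusted p = 7.9e-09). An opposite-strand gene shares 38.3% of the exon bases of *XAF1*. *EPSTI1* fell 2.34-fold in JVM2, from 48.0, 49.2 and 46.8 to 20.4, 21.1 and 20.0 CPM (-1.23, SE 0.075, adjusted p = 1.5e-07), yet its MEC1 arms overlapped at 49.2, 48.7 and 44.9 against 47.5, 43.8 and 45.1 CPM (-0.07, SE 0.049, adjusted p = 0.30). *IFI35* showed the same split on a smaller scale, at -0.52 (SE 0.062) in JVM2 and -0.09 (SE 0.043, adjusted p = 0.12) in MEC1. *SAMD9* and *SAMD9L*, adjacent antiviral genes on chromosome 7, were lower by 1.42-fold to 1.76-fold in both lines.

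Some well-expressed genes of the response were spared. Among those at a log2 CPM of 3 or more, the 4 with the smallest change in MEC1 were *SP100* (log2 fold change -0.02), *OAS1*, *EPSTI1* and *IRF7* (-0.06 to -0.07). *SP100*, another nuclear body gene, was at 176, 178 and 173 CPM in MEC1-CTRL and 176, 177 and 167 CPM in MEC1-2B17. In JVM2 the 4 were *TRIM22* (0.03), *TDRD7* (-0.09), *OAS1* (0.10) and *IFIH1* (-0.13). *TRIM22*, a ubiquitin ligase gene, was at 293, 302 and 303 CPM in JVM2-CTRL and 300, 323 and 296 CPM in JVM2-2B17 (SE 0.055, adjusted p = 0.68), while in MEC1 it was 1.10-fold lower (adjusted p = 0.0092), a call lost without CTRL replicate 1 (adjusted p = 0.060) or 2B17 replicate 3 (adjusted p = 0.056). *OAS1* was spared in both lines. A value that missed the threshold does not show that a gene did not change.

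Promoters with and without the ISRE core were set side by side as a description, with no test. The median of the 29 genes with a match was -0.64 on the log2 scale in MEC1 (28 tested, 26 lower and 1 higher) and -0.57 in JVM2 (28 tested, 25 lower). The 17 genes without one had a median of -0.18 in MEC1 (12 lower) and -0.40 in JVM2 (11 lower). Of all genes tested, 21.6% were lower in MEC1 and 15.3% in JVM2. Single genes departed from the order of these medians in both directions. *XAF1* and *CMPK2* fell strongly without a match in these windows, and *ISG20*, with a match on its own strand 69 bases before the start, rose in MEC1.

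Whether the 2 lines changed to the same extent was asked with the interaction of line and arm in 1 fit of all 12 libraries. Of the 55 genes, 20 had a lower log2 fold change in JVM2 than in MEC1 and 9 a lower one in MEC1, and 26 did not differ past the threshold, against 15.3% and 16.7% of all 15130 genes tested. The first group was led by *CMPK2* (difference -2.38, SE 0.44, adjusted p = 2.9e-04), *IFIT3* (-1.78, SE 0.080, adjusted p = 7.3e-13), *IFIT1* (-1.77, SE 0.16, adjusted p = 3.3e-08) and *XAF1* (-1.54, SE 0.12, adjusted p = 3.4e-09). The second was led by *IFITM3* (1.37, SE 0.30, adjusted p = 0.0014), *PARP14* (1.01, SE 0.068, adjusted p = 4.4e-10), *PARP9* (0.89, SE 0.079, adjusted p = 3.0e-08) and *DTX3L* (0.79, SE 0.069, adjusted p = 2.0e-08). Whether the *IFITM3* difference reflects reads of its close copy *IFITM2* was not tested. The IFIT genes thus lay on both sides, with *IFIT1*, *IFIT2* and *IFIT3* lower in JVM2 and *IFIT5* lower in MEC1 (0.38, SE 0.10, adjusted p = 0.0080). For *IFI44* the difference was 0.01 (SE 0.088), for *HERC6* -0.06 (SE 0.14), for *MX1* -0.05 (SE 0.071) and for *STAT2* -0.08 (SE 0.068), none past the threshold, which does not show that the changes were equal. The 26 also include *RSAD2* (SE 1.05) and *LGALS3BP* (SE 0.57), each too low to be tested in 1 line. For these the lines could not be compared with any precision. Over the 53 genes with a value in each line, log2 fold changes had a Pearson correlation of 0.49 and a Spearman correlation of 0.47. The lines share no libraries, but genes of 1 pathway are not independent replicates, so this is a description with no test.

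**Figure D4:**
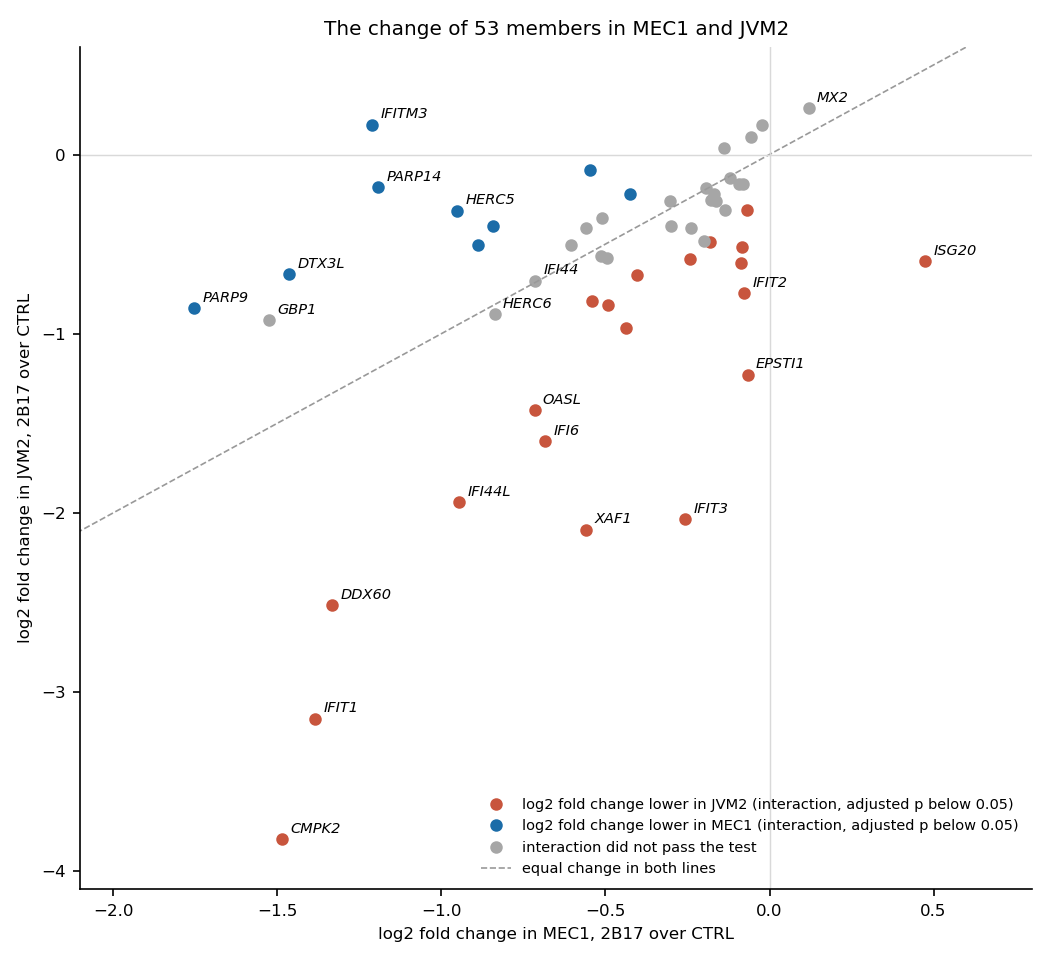
Log2 fold change of 53 interferon response genes in MEC1 (horizontal) and JVM2 (vertical); the dashed line marks equal change. Red points had a lower log2 fold change in JVM2 and blue points in MEC1 by the interaction test, with *CMPK2*, *IFIT1* and *DDX60* far below the line and *PARP9*, *DTX3L*, *PARP14* and *IFITM3* above it.

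The control cells of the 2 lines differed widely in their basal interferon profile. In the same fit, 37 of the 55 genes were higher and 15 lower in JVM2-CTRL than in MEC1-CTRL cells, and *IFI16*, *TRIM14* and *MX1* did not differ past the threshold. The background was high, with 38.7% of all genes higher and 39.6% lower, and the median of all genes was -0.04. Line, control construct, antibiotic and library depth differ together between these arms and cannot be told apart. To compare genes with each other, CPM was divided by exon length, taken as all exon bases of a gene over all its annotated transcripts. That length can exceed the length of any 1 transcript. It was 17984 bases for *MX1* and 867 bases for *ISG15*, so the order of genes depends on this choice. The 3 highest in MEC1-CTRL, in CPM per kb of exon, were *ISG15* at 129 ± 3.81 (SD, n = 3), *BST2* at 129 ± 5.70 and *IFITM1* at 113 ± 1.79, and the same 3 led in JVM2-CTRL, at 241 ± 8.87, 234 ± 10.3 and 150 ± 4.08. *ISG15* and *BST2* did not differ beyond their spread in either arm. At the other end, among genes tested in MEC1, *GBP1* stood at 0.147 ± 0.0104, *IFITM3* at 0.773 ± 0.0162 and *RSAD2* at 1.29 ± 0.120 CPM per kb in MEC1-CTRL. In JVM2-CTRL the lowest of the genes tested in that line were *CMPK2* at 0.876 ± 0.175, *IRF9* at 1.295 ± 0.178 and *OASL* at 1.47 ± 0.175 CPM per kb, of which the last 2 overlapped in spread.

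The largest differences between the control arms were of an on-off kind. *GBP1* was 121-fold higher in JVM2-CTRL (log2 difference 6.91, SE 0.098) and *LGALS3BP*, with 2, 9 and 8 counts in MEC1-CTRL against 1720, 1794 and 1483 in JVM2-CTRL, was higher by 9.97 on the log2 scale (SE 0.16). *RSAD2* went the other way and was lower in JVM2-CTRL by 4.35 on the log2 scale (difference -4.35, SE 0.34), as was *CMPK2* (-2.53, SE 0.12). *OAS3* (9.25-fold), *IFIT1* (6.25-fold), *PARP9* (5.22-fold), *STAT2* (3.37-fold) and *IFI6* (3.32-fold) were higher in JVM2-CTRL, while *IFI44L* (2.34-fold), *DDX60* (2.16-fold), *MX2* (2.04-fold), *IRF9* (1.99-fold) and *IRF7* (1.93-fold) were higher in MEC1-CTRL. The ISGF3 subunit genes *STAT2* and *IRF9* therefore stood in opposite order, with more *STAT2* in JVM2 and more *IRF9* in MEC1.

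**Figure D5:**
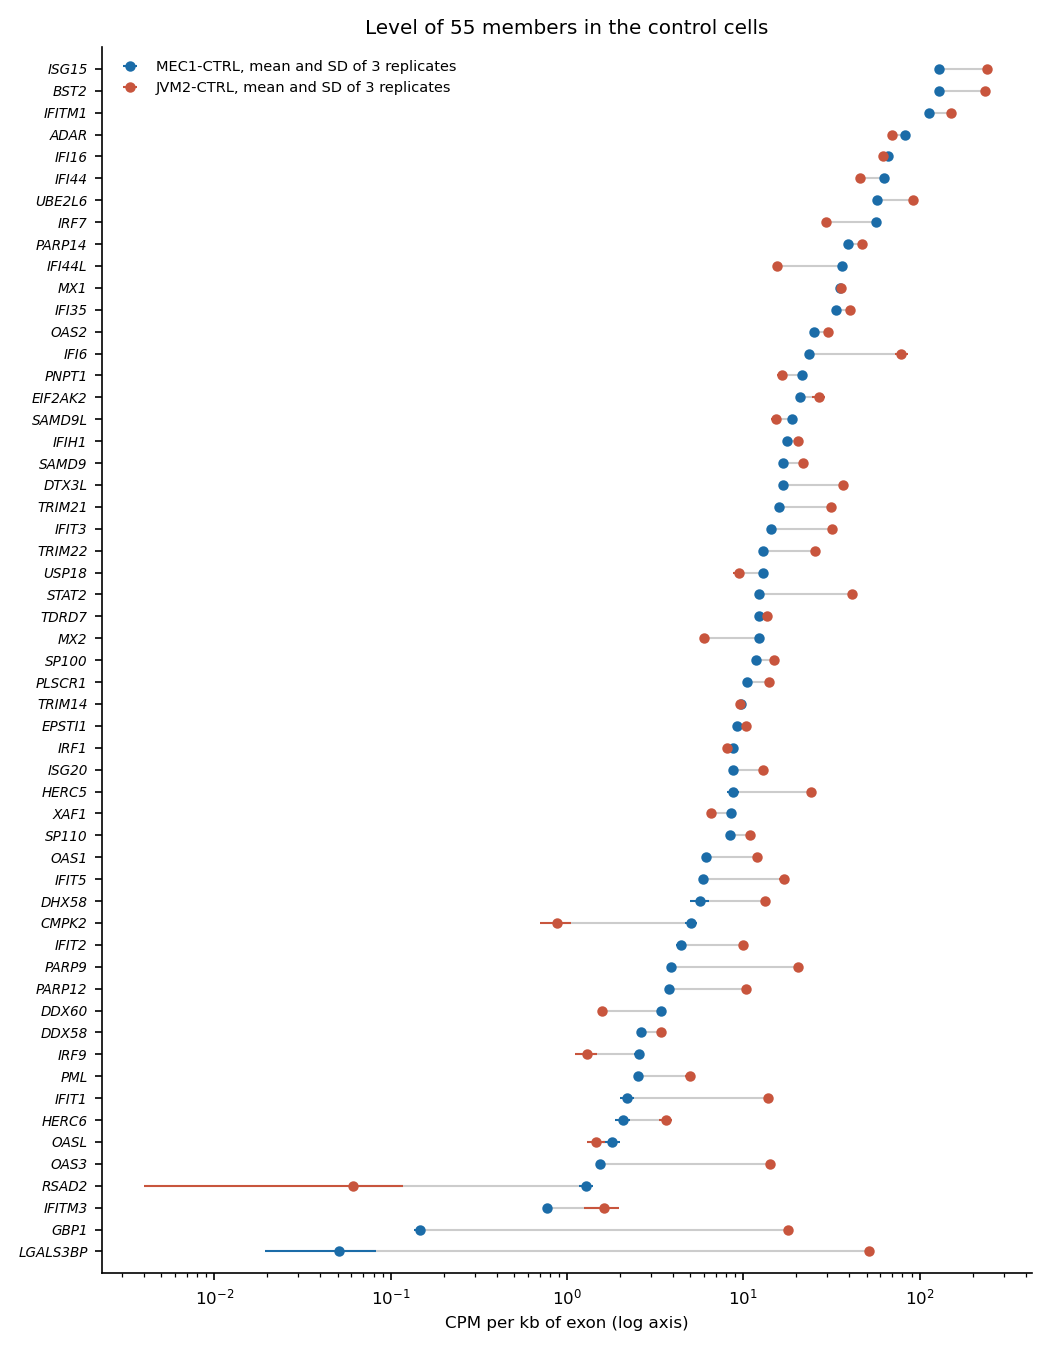
Level of the 55 genes in MEC1-CTRL (blue) and JVM2-CTRL (red) cells, in CPM per kb of exon on a log axis, as mean and SD of 3 replicates, ordered by the level in MEC1-CTRL. A grey line joins the 2 arms, and it is longest for *LGALS3BP*, *GBP1* and *RSAD2*.

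Other genes of the pathway were read from lists of general knowledge, which were chosen with earlier results of these data known. Their counts are therefore a description and not independent of the data. They are given beside the shares of all genes, which were 21.6% lower and 20.0% higher in MEC1 and 15.3% lower and 14.1% higher in JVM2. Of 10 receptor, kinase and STAT genes, 6 were lower and 1 higher in MEC1, and 2 were lower and 3 higher in JVM2. *IFNLR1*, the type III interferon receptor, fell from 24.8 to 10.3 CPM in MEC1 (log2 fold change -1.27) and from 14.8 to 3.58 CPM in JVM2 (-2.05). *IFNGR1*, the type II receptor, fell in MEC1 (-1.10) and rose in JVM2 (1.09). Among sensors and adaptors, 8 of 20 were lower and 4 higher in MEC1, and 5 of 19 lower and 2 higher in JVM2, with the adaptor gene *MYD88*, the kinase gene *IRAK1* and the sensor gene *ZBP1* lower in both. The MEC1 arms of *MYD88* overlapped. The RNA sensor *TLR7* fell in MEC1 (-1.45) and rose in JVM2 (0.56), and *IRF8*, a lymphoid transcription factor gene, did likewise (-0.25 and 0.40). Of the list of negative regulators, which also held *UBA7*, 4 of 16 were lower and 1 higher in MEC1, and 3 of 15 lower and 2 higher in JVM2. The shares that were lower are near those of all genes, and *PTPN11* was the one lower in both.

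Of 42 further interferon-stimulated genes, 27 of 40 tested were lower and 2 higher in MEC1 (21.6% and 20.0% of all genes), and 18 of 37 were lower and 4 higher in JVM2 (15.3% and 14.1%). Their medians were -0.23 and -0.21 on the log2 scale. *DDX60L*, the neighbour and relative of *DDX60*, fell from 12.7 to 4.51 CPM in MEC1 (-1.50, adjusted p = 7.1e-11). In JVM2 it had 14, 13 and 14 counts in CTRL and 1, 2 and 0 counts in 2B17 libraries, a ratio of 13.0 (95% interval of counting error 4.15 to 65.7). *TNFSF10*, which encodes the death ligand TRAIL, fell in MEC1 (-0.72) and JVM2 (-1.87), as did the large ring-finger ATPase gene *RNF213* (-0.54 and -0.71), the peptide transporter gene *TAP1* (-0.50 and -0.50), the chaperone gene *RTP4* (-0.36 and -0.95) and *HELZ2* (-0.43 and -0.63). *GBP3, ZNFX1, MOV10, OGFR, LY6E, SLC15A3, APOBEC3G* and *PSMB9* were also lower in both lines, by -0.19 to -1.02 in MEC1 and by -0.21 to -0.53 in JVM2. *GBP4* rose in both (0.52 and 0.71), although it belongs to the same family as *GBP1*. *MLKL* rose in MEC1 and fell in JVM2 (0.35 and -0.36), whereas *GBP5* (-1.37 and 0.24) and *PHF11* (-0.21 and 0.25) did the reverse. In MEC1 *GBP5* was barely present, with 15, 13 and 17 counts in CTRL and 5, 7 and 4 counts in 2B17 libraries (SE 0.36).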

How the data were processed

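The 12 libraries, 3 in each of 4 groups, were paired-end sequences of total RNA after removal of ribosomal RNA. Per the labels, the authors trimmed the reads with Trimmomatic, aligned them to hg38 with TopHat2 2.0.14 and counted them with HTSeq, and the deposited tables hold raw counts per Ensembl gene. The tables also hold the authors' fold changes, p-values and 12 columns of normalized values, which were not used here. The members and gene lists were chosen with earlier results of these data known.

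Each line was fitted with edgeR 4.0.16 in R 4.3.3 (TMM, filterByExpr, quasi-likelihood F-test), 2B17 against CTRL, with Benjamini-Hochberg adjustment over every gene tested in that line and a threshold of 0.05. The interaction and the comparison of control arms came from 1 fit of 12 libraries over genes in both tables. SEs were derived from the F statistic. Positions and exon lengths are from GENCODE v44, and promoters from RefSeq (GRCh38.p14). Genes given in full were, per line, the 8 largest falls and 4 largest rises, the 3 highest and lowest levels per control arm, the 4 least changed, the factors and sensors, and genes with opposite changes. List genes past the threshold in both lines were named, some without a value or within a shared range. Other values were chosen after they were seen. Alternatives were DESeq2 1.42.0, edgeR's exact test, both tools together, other scalings and filters, the replicate number as a block, and each replicate left out. On simulated data, 71.9% of 64 genes changed by 0.5 on the log2 scale were recovered in MEC1 and 77.4% of 62 in JVM2. For the interaction it was 57.1% of 63. The simulation changed 200 genes and gave every gene the same spread, whereas far more genes passed the test in the real data. These shares therefore do not give the recovery in the real data. Intervals of count ratios are exact (Clopper-Pearson) and cover counting error only. Some genes of the marker and pathway lists are not reported here.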

Additional observations from a re-analysis of the deposited data

Results flagged for a closer look

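For 29 genes the log2 fold change of 2B17 over CTRL cells differed between JVM2 and MEC1 by the interaction test (edgeR, adjusted p below 0.05), and each difference is given as JVM2 minus MEC1. Of the 55 genes, 20 were below 0 and 9 above 0. Among all 15130 genes tested, 15.3% were below 0 and 16.7% above 0, so the number above 0 is near the share of all genes. It was below 0 for *CMPK2* (-2.38), *IFIT3* (-1.78), *IFIT1* (-1.77), *XAF1* (-1.54), *DDX60* (-1.19), *EPSTI1* (-1.17), *ISG20* (-1.07), *IFI44L* (-0.997), *IFI6* (-0.92), *OASL* (-0.72), *IFIT2* (-0.70), *USP18* (-0.53), *IRF1* (-0.52), *IFI35* (-0.44), *DDX58* (-0.35), *PARP12* (-0.34), *UBE2L6* (-0.31), *SAMD9L* (-0.28), *ISG15* (-0.27) and *IRF7* (-0.25). It was above 0 for *IFITM3* (1.37), *PARP14* (1.01), *PARP9* (0.89), *DTX3L* (0.79), *HERC5* (0.63), *TDRD7* (0.46), *PLSCR1* (0.44), *IFIT5* (0.38) and *BST2* (0.20). The *IRF7* difference passed the test in 7 of 18 settings, that of *BST2* in 13, of *ISG15* in 15, and of *SAMD9L* and *OASL* in 16. The lines differ in control construct, antibiotic and depth as well, which cannot be told apart from the line.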

How the results depend on the processing

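The number of lower genes was 41 to 46 in MEC1 and 40 to 43 in JVM2 over the alternatives with all replicates, and 39 to 44 in both lines with 1 replicate left out. The number higher was 2 in MEC1 throughout and 1 in JVM2, except with the replicate block, where it was 2 (*SP100*, 0.16, adjusted p = 0.047). Same-numbered replicates did not deviate together in every pair (correlations -0.07 to 0.05 in MEC1 and -0.01 to 0.13 in JVM2). In JVM2 the highest correlations of any pair were those of same-numbered replicates 1 (0.096) and 2 (0.13). Whether replicates were paired there is therefore not settled. In JVM2 the block also brought *PML* (-0.44, adjusted p = 0.0062) and *OAS3* (-0.28, adjusted p = 0.021) past the threshold, and it took no call away in either line. With 1 replicate left out, 16 to 20 genes were lower in JVM2 than in MEC1 by the interaction and 8 to 11 the reverse, and 13 to 16 were lower and 35 to 37 higher in JVM2-CTRL than in MEC1-CTRL. With 1 replicate left out the sign turned for 4 genes that had no call. *IRF7* ranged from -0.13 to 0.0098 in MEC1 (above 0 without MEC1-2B17 replicate 2) and *SP100* from -0.033 to 0.011 (without MEC1-2B17 replicate 3). In JVM2, *TRIM22* ranged from -0.0036 (without JVM2-2B17 replicate 2) to 0.061 and *IFITM3* from -0.062 (without JVM2-2B17 replicate 3) to 0.39. The interaction of *IRF7* was lost with DESeq2 (adjusted p = 0.056), with no filter on low counts (0.05004) and in 9 fits with 1 replicate left out, all but those without MEC1-2B17 replicate 2, JVM2-CTRL replicate 3 or JVM2-2B17 replicate 2 (adjusted p up to 0.12). Interaction calls were also lost without 1 replicate for *BST2* (MEC1-CTRL 3, each MEC1-2B17 replicate and JVM2-CTRL 3, adjusted p up to 0.10), *ISG15* (MEC1-2B17 1, JVM2-CTRL 2 and JVM2-2B17 3, up to 0.055), *SAMD9L* (JVM2-CTRL 2 and JVM2-2B17 1, up to 0.079) and *OASL* (JVM2-CTRL 2 and JVM2-2B17 3, up to 0.051). In MEC1, *IRF1* and *PNPT1* passed the test with library sizes alone (adjusted p = 0.039 and 0.047), and *IRF1* with at least 10 counts in every library (0.046). In JVM2, *PML* also passed with edgeR's exact test (0.029) and library sizes alone (0.048). *RSAD2* could not be tested in JVM2, where libraries were shallower and its level relative to depth was also lower (log2 difference of the control arms -4.35). How much of this is due to depth was not tested.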
